A study of Mus musculus with 8 samples.

Results

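The genes described here encode the machinery of DNA replication and of mitosis. A fixed list of 47 genes was split by role into 24 replication genes, 3 regulators of entry into S phase and 20 mitosis genes. The deposited table held a probe set naming 1 gene alone for 46 of the 47, among 18193 genes measured in all. The mitotic cyclin Ccnb1 is not analysed here, which leaves 19 mitosis genes. Where a gene had several such probe sets, the brightest one, by its mean over the 8 arrays, stood for it.

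RNA came from the tongue bud, the embryonic rudiment of the tongue, of C57BL/6J mice at embryonic day 13.5, and was hybridised to one-colour Affymetrix arrays. Control embryos were Alk5 fl/fl, meaning that both alleles of Alk5 were floxed but no Cre was present. Mutant embryos were Wnt1-Cre; Alk5 fl/fl, with Cre driven by the Wnt1 promoter in neural crest cells. Alk5 (gene symbol Tgfbr1) is the type I receptor for TGF-beta, and Wnt1-Cre does not target the muscle, endothelial and epithelial cells of the bud. Each group had 4 arrays, and sex was not determined. No group carried Wnt1-Cre alone, so Cre and receptor loss cannot be told apart. The labels do not say whether embryos of a group came from separate litters, so the p-values measure the spread between these samples.

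A dividing cell first assembles the MCM helicase on origins of replication, with Cdc6 and Cdt1 as loaders, then fires those origins and copies its DNA with polymerases held by the sliding clamp PCNA. Replication genes are switched on around the G1/S boundary by E2F transcription factors, which pocket proteins such as RB hold in check. Mitosis genes peak later, in G2 and M, and many are controlled through a promoter element called the cell cycle genes homology region (CHR). In an embryonic tongue, mesenchyme, epithelium and muscle progenitors all divide, while muscle cells leave the cell cycle as they differentiate. TGF-beta restrains division in many cell types, in part by inducing inhibitors of cyclin-dependent kinases.

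Array medians lay between 5.96 and 6.01 on the log2 scale, and 45.2% of the variance over genes lay on a first principal component that parted the groups. Tgfbr1 itself had log2 values of 12.03, 12.12, 11.97 and 11.89 in the control arrays and 12.42, 12.42, 12.37 and 12.36 in the mutant arrays, a log2 difference of 0.39 (SE 0.058, limma adjusted p = 0.00342). The labelled mutants were thus the higher group for the targeted gene. The position of its probes relative to the floxed exons is not given in the sources used here, so this checks neither the deletion nor the labels. All directions below rest on the labels.

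Replication genes and mitosis genes were both slightly higher in the mutants as classes, and no mitosis gene passed the test. Of the 46 measured genes, 6 rose in the mutants and 0 fell, all 6 of them replication genes: Mcm3, Pole, Rfc3, Mcm2, Mcm4 and Cdt1. A gene was called where limma's adjusted p over all 18193 genes was under 0.05. By that rule 4.2% of all genes rose and 5.52% fell, 9.72% in either direction. The differences were small, from 0.20 to 0.37 on the log2 scale, or 1.15-fold to 1.29-fold. The median over the 46 genes was 0.13, beside −0.01 over all genes and 0.01 over the 3368 genes with a mean log2 value above 10, a range that holds most of these probe sets. At an unadjusted p under 0.05, 23 of the 46 were higher and 0 lower, where 11.3% of all genes were higher and 12.5% lower. Of the 3368 brighter genes, 502 were higher and 424 lower at that level. The adjusted p called 180 of them higher and 193 lower. The number called fell whichever single array was dropped. Dropping mutant 2 left 2 calls, and dropping control 3 or control 4 left 4. Dropping any other single array, or controls 1 and 3 together, left 3.

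**Figure D1:**
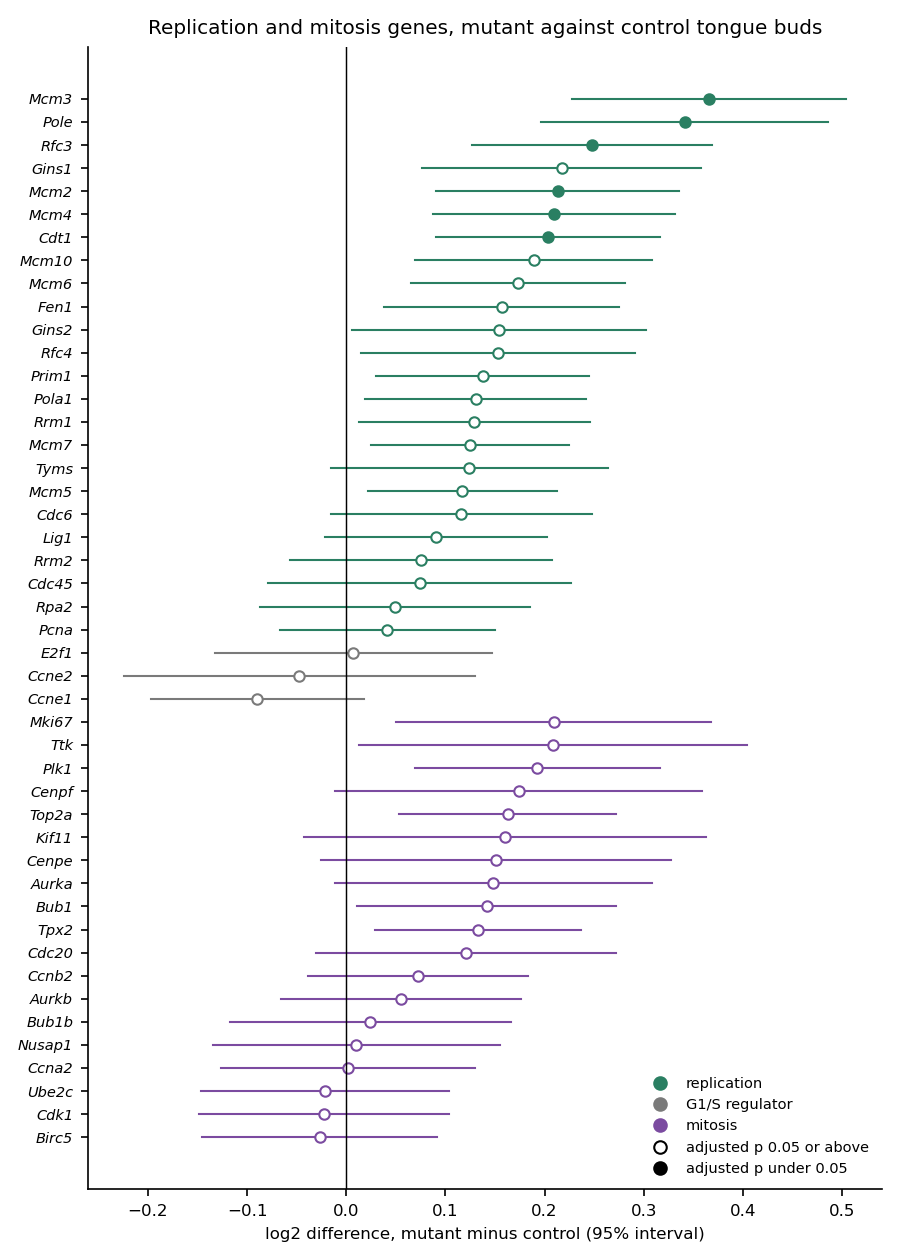
The x axis gives the log2 difference, mutant minus control, with its 95% interval from limma, and each line is 1 of the 46 measured genes, coloured by class. Filled points mark the 6 genes with an adjusted p under 0.05. All 24 replication genes lie to the right of 0, as do 16 of 19 mitosis genes, while the 3 G1/S regulators lie around 0.

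The 24 replication genes all had a mutant mean above the control mean, in a study where 46.6% of all genes did. Among the 3368 genes with a mean log2 value above 10, 1889 did. In 16 of the 24 all 4 mutant arrays lay above all 4 controls. In that direction 8.92% of all genes were parted, and 477 of those 3368. The class median was 0.15 on the log2 scale, or 1.11-fold, with a range from 0.04 for Pcna to 0.37 for Mcm3. The sign held for all 24 with the arrays quantile normalized again, centred on their medians or centred on the bright genes. Averaging each gene's probe sets, it held for 23, Cdc45 being the exception at −0.04.

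The MCM2-7 proteins form the ring-shaped helicase that opens the double helix. All 6 of their genes were parted between the groups, with every mutant array above every control, and 3 passed the test. Mcm3 showed the largest difference of the list. Its log2 values, in the order of replicates 1 to 4 used throughout, were 11.42, 11.40, 11.43 and 11.26 in controls and 11.64, 11.72, 11.80 and 11.82 in mutants. Group means of 11.38 ± 0.081 and 11.74 ± 0.082 (SD, n = 4) gave a log2 difference of 0.37 (SE 0.061, limma adjusted p = 0.00587), and it kept its call in all 18 alternative settings run. The groups lay well apart, and control 4 was the lowest of its group.

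Mcm2 read 11.37, 11.23, 11.40 and 11.32 on controls and 11.52, 11.48, 11.61 and 11.56 on mutants. The log2 difference was 0.21 (SE 0.055, limma adjusted p = 0.0392). Mcm4 read 12.38, 12.33, 12.36 and 12.51 on controls and 12.62, 12.60, 12.65 and 12.55 on mutants, a difference of 0.21 (SE 0.054, limma adjusted p = 0.0411). Both calls were near the threshold, and each failed on 7 of 8 occasions when a single array was dropped. Over those drops Mcm2 ranged from 0.18 to 0.24 and Mcm4 from 0.19 to 0.25. Both calls also failed without variance moderation, and that of Mcm4 with its probe sets averaged. Mcm6, with 12.18, 12.28, 12.25 and 12.14 on controls against 12.40, 12.39, 12.37 and 12.39 on mutants, lay just beyond the threshold at 0.17 (limma adjusted p = 0.0536). Its mutant arrays differed among themselves far less than its controls, with SDs of 0.011 and 0.064. Mcm7 read 12.80, 12.82, 12.83 and 12.87 on controls and 12.99, 12.91, 12.98 and 12.94 on mutants (difference 0.13, limma adjusted p = 0.12). Mcm5 differed by 0.12 (limma adjusted p = 0.127).

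The other genes of origin loading and firing ran the same way with smaller or noisier differences. Cdt1, which loads the helicase together with Cdc6, read 12.06, 12.15, 12.10 and 12.06 on controls and 12.24, 12.32, 12.36 and 12.26 on mutants. Its difference of 0.20 (SE 0.05, limma adjusted p = 0.0333) separated the groups. The call failed on 6 of 8 occasions when a single array was dropped (0.18 to 0.22), and with its probe sets averaged. Cdc6 itself differed by 0.12 and did not pass (limma adjusted p = 0.27). Mcm10, a factor that activates the loaded helicase, read 9.10, 9.10, 9.01 and 9.05 on controls and 9.19, 9.23, 9.37 and 9.23 on mutants, a difference of 0.19 (limma adjusted p = 0.0563). Gins1, a subunit of the GINS complex that travels with the helicase, read 10.37, 10.40, 10.51 and 10.56 on controls and 10.72, 10.57, 10.75 and 10.67 on mutants. It differed by 0.22 (SE 0.063, limma adjusted p = 0.0606), more than Mcm2 or Cdt1, but with more spread in both groups. Gins2 differed by 0.15 and Cdc45, the third partner of the active helicase, by 0.07. Neither passed (limma adjusted p = 0.193 and 0.565).

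**Figure D2:**
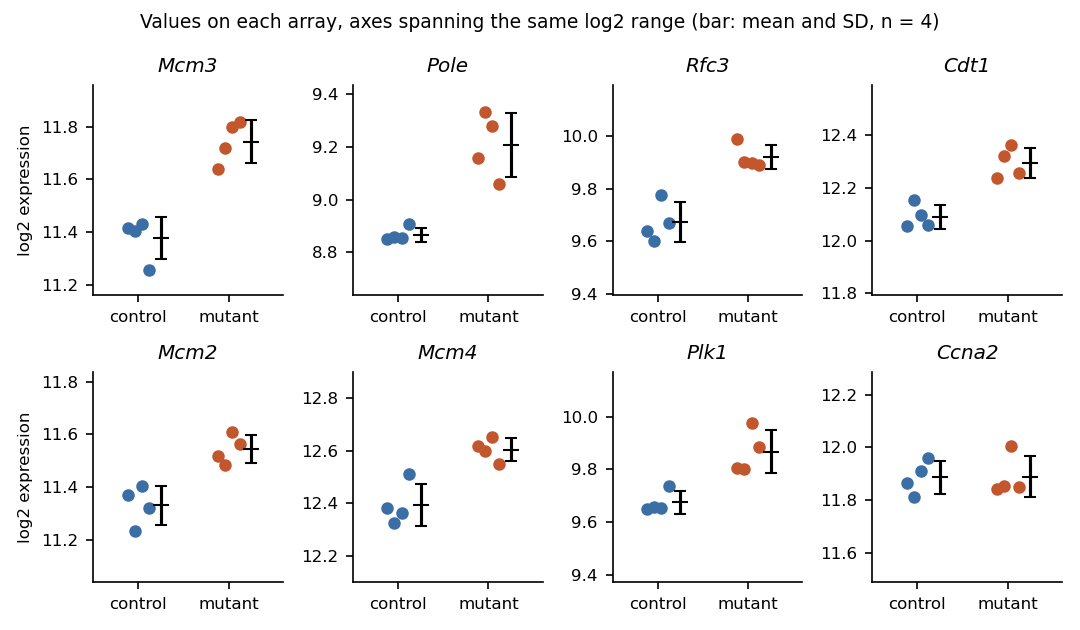
Each panel shows the log2 expression of 1 gene on the 4 control and 4 mutant arrays, with the mean and SD beside the points, on axes that span the same log2 range. The groups do not overlap for the 6 called genes or for Plk1, whereas the values of Ccna2 interleave.

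Among polymerase, clamp and ligase genes, 2 of 9 rose. Pole encodes the catalytic subunit of the leading-strand polymerase epsilon. It read 8.85, 8.86, 8.85 and 8.91 on controls and 9.16, 9.33, 9.28 and 9.06 on mutants, a difference of 0.34 (SE 0.065, limma adjusted p = 0.0103) or 1.27-fold. The controls agreed within an SD of 0.027 while the mutants spread over an SD of 0.123. Pole passed whichever single array was dropped (0.30 to 0.39), but not without controls 1 and 3 together. Rfc3 is a subunit of the clamp loader, which places PCNA on DNA. It read 9.64, 9.60, 9.78 and 9.67 on controls and 9.99, 9.90, 9.90 and 9.89 on mutants, a difference of 0.25 (SE 0.054, limma adjusted p = 0.02). Rfc3 no longer passed once control 2, mutant 1 or mutant 2 was dropped (0.22 to 0.28 over all single drops).

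Fen1, the nuclease that trims Okazaki fragments, read 11.54, 11.57, 11.62 and 11.62 on controls and 11.70, 11.72, 11.85 and 11.69 on mutants (difference 0.16, limma adjusted p = 0.102). Pcna, the clamp itself, had the brightest probe set of the list and hardly differed. It read 13.47, 13.48, 13.48 and 13.59 on controls and 13.57, 13.51, 13.58 and 13.52 on mutants, a difference of 0.04 with a 95% interval from −0.07 to 0.15. Primase (Prim1) and polymerase alpha (Pola1) differed by 0.14 and 0.13, the clamp loader gene Rfc4 by 0.15, the ligase gene Lig1 by 0.09 and Rpa2, of the single-strand binding protein, by 0.05. None of these 5 passed.

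The deoxynucleotide genes Rrm1 and Rrm2, which encode ribonucleotide reductase, differed by 0.13 and 0.08. Tyms, for thymidylate synthase, read 6.21, 6.32, 6.26 and 6.09 on controls and 6.30, 6.31, 6.44 and 6.32 on mutants, a difference of 0.12. That probe set was the dimmest of the list, close to the array medians, and the other probe sets of Tyms were dimmer still, with control means of 3.83, 3.72 and 3.22. None of the 3 genes passed.

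The 3 listed regulators of entry into S phase did not follow the replication genes. Other G1 genes, some of them called higher, are given further below. Cyclin E, encoded by Ccne1 and Ccne2, activates the kinase CDK2 at the G1/S boundary. Ccne1 read 11.28, 11.33, 11.31 and 11.42 on controls and 11.21, 11.24, 11.27 and 11.25 on mutants, which puts all 4 mutants below all 4 controls by 0.09 on average (limma adjusted p = 0.298). In the same direction 8.87% of all genes were parted. Ccne2 differed by −0.05 and E2f1, which encodes an activating E2F, by 0.01. E2f1 read 7.96, 7.92, 8.11 and 8.13 on controls and 8.04, 8.08, 8.06 and 7.97 on mutants, with a 95% interval of its difference from −0.13 to 0.15. A rise of E2f1 above 1.11-fold lay outside that interval. The sign for E2f1 and Ccne2 turned in some alternatives, so no direction is given for either.

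Of the 19 mitosis genes, 0 passed the test in either direction in limma, with 6 higher and 0 lower at an unadjusted p under 0.05. At that level 11.3% of all genes were higher and 12.5% lower. Of the 3368 genes with a mean above 10, 502 were higher and 424 lower. An ordinary linear model without variance moderation called 2 of the mitosis genes higher, and limma with trend and robust options called 3. Their means were higher in the mutants for 16 of 19 and their median difference was 0.13, and in 3 every mutant array lay above every control. Those 3 were Plk1, Top2a and Tpx2. In that direction 8.92% of all genes were parted, and 477 of the 3368 brighter genes, a share near 3 of 19. A higher mutant mean was found for 46.6% of all genes and for 1889 of the 3368. Plk1 encodes a kinase that drives entry into mitosis and spindle assembly. It read 9.65, 9.66, 9.65 and 9.74 on controls and 9.80, 9.80, 9.98 and 9.89 on mutants (difference 0.19, limma adjusted p = 0.0584). Top2a, the topoisomerase that untangles sister chromatids, read 12.72, 12.70, 12.66 and 12.69 on controls and 12.80, 12.88, 12.93 and 12.81 on mutants (difference 0.16, limma adjusted p = 0.0684).

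Several genes of the mitotic core differed little. Cdk1, the mitotic kinase, differed by −0.02 (95% interval −0.15 to 0.10), its partner Ccna2 by 0.00 (−0.13 to 0.13) and Ccnb2, another cyclin partner, by 0.07 (−0.04 to 0.18). Ube2c, the ubiquitin-conjugating enzyme of the anaphase-promoting complex, differed by −0.02, and Birc5 (survivin), of the chromosomal passenger complex, by −0.03. The passenger kinase gene Aurkb differed by 0.06, Bub1b of the spindle checkpoint by 0.02 and the spindle protein gene Nusap1 by 0.01. The highest upper bound among these 8 was the 0.18 of Ccnb2. The direction for Cdk1, Ccna2, Ube2c, Bub1b and Nusap1 turned in at least 1 of the alternatives, so none is given.

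The remaining mitosis genes had mutant means above the control means and did not pass. Mki67, the common marker of dividing cells, read 11.90, 11.88, 11.88 and 12.04 on controls and 12.01, 12.24, 12.24 and 12.04 on mutants. Its difference of 0.21 (SE 0.071, limma adjusted p = 0.102) came with groups that overlap, since control 4 lay within the mutants. Checkpoint kinase genes Ttk and Bub1 differed by 0.21 and 0.14, the kinetochore genes Cenpf and Cenpe by 0.17 and 0.15, the motor gene Kif11 by 0.16, Aurka by 0.15, its activator Tpx2 by 0.13 and Cdc20 by 0.12. On mutant 3 the mitosis genes were high together: its class mean was 0.15 above the mean of all arrays, against −0.004 to 0.04 on the other mutants.

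To set replication against mitosis, each gene was centred on its mean over the 8 arrays and averaged within its class. The replication mean read −0.10, −0.11, −0.04 and −0.07 on controls and 0.07, 0.07, 0.13 and 0.05 on mutants, and the groups were parted by more than their SDs of 0.031 and 0.034. The mitosis mean read −0.02, −0.10, −0.06 and −0.02 on controls and 0.01, 0.04, 0.15 and −0.004 on mutants. These groups were also parted, but control 4 and mutant 4 nearly met. The class means differed between groups by 0.16 for replication and 0.10 for mitosis genes on the log2 scale, a gap of 0.06. With each gene's probe sets averaged the gap was 0.031. The reported gap did not part the groups: replication minus mitosis was −0.08, −0.005, 0.02 and −0.06 on controls and 0.06, 0.03, −0.02 and 0.06 on mutants, with SDs of 0.045 and 0.036. Mutant 3 lay below control 3. So a larger shift of replication than of mitosis genes was not resolved at 4 arrays a group. No p-value is given for these class means, since the members were grouped with earlier results known.

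**Figure D3:**
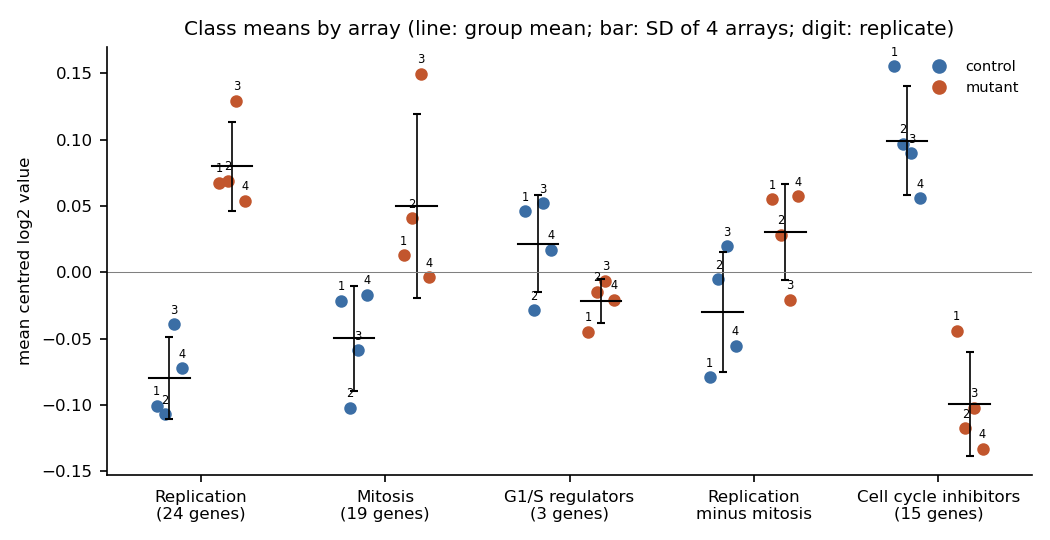
The y axis gives the mean centred log2 value of a class on each array, with digits for the replicate, a line for the group mean and a bar for the SD of 4 arrays. Mutants lie above controls for replication and mitosis genes and below them for cell cycle inhibitors, while the groups overlap for the G1/S regulators and for replication minus mitosis.

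Several genes were read by more than 1 probe set, and in the fit over all 34945 sets that name 1 gene these gave further readings. In that fit 2.69% of sets were called higher and 3.25% lower, and 49.2% had a higher mutant mean. Of 57 probe sets for replication genes 51 were higher in the mutants and 10 were called higher, against 33 of 39 and 0 called for mitosis genes. Among the 33 sets not used above, 7 for replication genes were called. They read Mcm2 (0.35), Mcm3 (0.35 and 0.27), Mcm7 (0.27 and 0.24), Gins2 (0.24) and Fen1 (0.34). For Mcm2, Mcm7, Gins2 and Fen1 the set with the highest signal thus gave the smaller difference. The 5 sets of Mcm3 ran from 0.37 on the brightest to 0.01 on the dimmest. With p-values adjusted over these sets, the brightest sets of Mcm3, Pole and Rfc3 passed, and those of Cdt1, Mcm2 and Mcm4 did not (limma adjusted p = 0.0541, 0.062 and 0.0646). The 20 further sets for mitosis genes added no call, with 17 higher and 3 lower. The largest differences among them, on sets of Bub1 (0.48, SE 0.17) and Cenpe (0.46, SE 0.71), exceeded those of any replication set. Both came with wide errors. The further sets of Kif11 gave 0.14 and 0.26 beside the 0.16 of its brightest.

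The promoter windows of the classes held different sequence words. RefSeq windows of 300 bases, from 250 before to 50 after a start site (build GRCm38.p6), were found for 38 of the 46 measured genes. The windows were searched on both strands for E2F words (TTTCCCGC, TTTCGCGC, TTTGGCGC or TTTGCCGC), for the CHR core TTTGAA and for CCAAT. An E2F word stood in 9 of 20 replication genes and 1 of 16 mitosis genes, where 3.81% of measured genes with a window hold one. A CHR core stood in 3 of 20 replication and 12 of 16 mitosis genes, where 15.7% hold one, and each of those 12 also held CCAAT. Only Cdk1 of the 36 held both an E2F word and a CHR core. Members with no window were Pole, Mcm4, Gins1, Gins2, Ccna2, Ccne2, Aurkb and Tpx2. A match is a stretch of letters and shows no binding.

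The stretches that carry these matches are shown for the called genes Mcm3, Cdt1, Rfc3 and Mcm2, for Mcm5 and Mcm6 of the same helicase, and for 4 mitosis genes. They are written 5′ to 3′ on the gene's strand, with E2F words and CHR cores in capitals.
Mcm3 (E2F words, chr1:20820266-20820295, minus strand, bases 18 to 47 after the start): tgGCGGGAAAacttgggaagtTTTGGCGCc
Cdt1 (E2F word, chr8:122568035-122568064, plus strand, bases 21 to 50 after the start): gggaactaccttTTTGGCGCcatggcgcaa
Rfc3 (E2F word, chr5:151651209-151651268, minus strand, the 60 bases before the start): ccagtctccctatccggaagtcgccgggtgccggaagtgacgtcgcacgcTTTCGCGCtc
Mcm6 (E2F words, chr1:128359736-128359825, minus strand, bases −120 to −31): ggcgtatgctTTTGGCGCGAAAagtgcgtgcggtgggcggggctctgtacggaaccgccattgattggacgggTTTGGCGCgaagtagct
Mcm5 (E2F words, chr8:75109339-75109398, plus strand, bases −170 to −111): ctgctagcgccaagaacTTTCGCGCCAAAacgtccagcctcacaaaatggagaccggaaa
Mcm2 (CHR core, chr6:88898811-88898870, minus strand, bases −90 to −31): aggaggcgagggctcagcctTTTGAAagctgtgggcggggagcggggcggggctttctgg
Top2a (CHR core, chr11:99024190-99024249, minus strand, the 60 bases before the start): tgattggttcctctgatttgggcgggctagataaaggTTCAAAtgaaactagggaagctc
Mki67 (CHR cores, chr7:135716440-135716499, minus strand, bases −120 to −61): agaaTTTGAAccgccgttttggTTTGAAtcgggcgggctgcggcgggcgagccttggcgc
Cdc20 (CHR core, chr4:118437344-118437403, minus strand, the 60 bases before the start): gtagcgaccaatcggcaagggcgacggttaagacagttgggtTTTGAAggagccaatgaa
Cdk1 (E2F word and CHR cores, chr10:69352913-69353052, minus strand, the 140 bases before the start): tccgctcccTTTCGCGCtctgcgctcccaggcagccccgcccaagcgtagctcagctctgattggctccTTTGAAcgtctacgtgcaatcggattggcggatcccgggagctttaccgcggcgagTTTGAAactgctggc

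In Mcm6 and Mcm5 words on opposite strands overlap, so that 1 run of capitals holds 2 words. Mcm2 rose without an E2F word in its window, and Cdk1, which has one, did not pass. Within the replication genes the median difference was 0.13 for the 9 with an E2F word and 0.13 for the 11 without. Of the 9, 3 rose (33.3%), and of the 11, 1 did (9.09%). Over all measured genes with a window, 44 of 550 with an E2F word rose (8%), against 552 of 13902 without (3.97%), with medians of 0.04 and −0.01. With a CHR core 3.98% rose and without it 4.15%. These shares are descriptions, with no test.

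Genes around the listed ones were taken from wider lists of the cell cycle. Of 36 other replication genes measured, 7 rose and 0 fell, with a median of 0.15. Over all genes 4.2% rose and 5.52% fell. Timeless, of the complex that protects replication forks, read 9.68, 9.66, 9.79 and 9.70 on controls and 9.997, 9.98, 10.09 and 9.98 on mutants, a difference of 0.30 (SE 0.051, limma adjusted p = 0.00574). Clspn, the fork mediator of the checkpoint kinase CHK1, rose by 0.27 and Orc1, of the origin recognition complex, by 0.30. All 3 lost their call when each gene's probe sets were averaged, where 3 genes of the list rose. The list held 3 calls without control 1, control 2 or mutant 2, and 2 without mutant 3 or mutant 4. Of 47 other mitosis genes, 2 rose, near the share of all genes that did, and 0 fell, with a median of 0.06. At an unadjusted p under 0.05 in limma, 6 were higher and 1 lower, beside 11.3% and 12.5% of all genes. The 2 called were Ccnf and Espl1. Ccnf, a cyclin that serves a ubiquitin ligase, differed by 0.34 (SE 0.057, limma adjusted p = 0.00607). Espl1, the separase that cleaves cohesin, differed by 0.22. Espl1 failed on 7 of 8 occasions when a single array was dropped (0.18 to 0.25) and kept its call only without control 4.

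Upstream regulators changed in both directions. Of 21 G1 cyclins, kinases, E2F and pocket protein genes, 6 rose, 2 fell and 13 did not pass, and the list's median was 0.07. Over all genes 4.2% rose and 5.52% fell. E2f5, for an E2F that acts mainly with pocket proteins as a repressor, read 8.84, 8.79, 8.86 and 8.75 on controls and 9.66, 9.60, 9.39 and 9.47 on mutants, a difference of 0.72 (SE 0.066, limma adjusted p = 0.000353). Mycn, a growth-promoting transcription factor, read 9.94, 9.73, 9.99 and 9.96 on controls and 10.37, 10.43, 10.74 and 10.64 on mutants, a difference of 0.64 (SE 0.093). Rb1, for the pocket protein RB, fell from 10.20, 10.22, 10.17 and 10.13 to 9.67, 9.82, 9.51 and 9.70, a difference of −0.51 (SE 0.066, limma adjusted p = 0.00185). In all 3 genes the groups lay far apart. Cdk6 (0.60), E2f6 (0.31), Tfdp2 (0.29) and E2f3 (0.22) were also called higher, and Rbl2 (−0.22) lower. With probe sets averaged, 3 of the list rose and 1 fell. E2f6, Tfdp2, E2f3 and Rbl2 lost their calls in that setting. Rb1 alone fell without control 1, control 3, mutant 3 or mutant 4.

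Several cell cycle inhibitors ran the other way. Of 15 measured, 6 fell and 0 rose, where 5.52% of all genes fell and 4.2% rose. At an unadjusted p under 0.05, 1 was higher and 7 lower. The mutant mean was lower for 11 of the 15 and higher for 4. With trend and robust options limma called 1 of the inhibitors higher. The list's median was −0.08. Cdkn2c, for the inhibitor p18 of the cyclin D kinases, fell from 9.90, 9.49, 9.51 and 9.67 to 8.87, 8.76, 9.04 and 8.91, a difference of −0.75 (SE 0.097, limma adjusted p = 0.00183). Gadd45b, a growth arrest gene, fell by 0.54 (SE 0.062) and Btg2, an antiproliferative gene, by 0.32 (SE 0.048). Cdkn1a (p21) at −0.50 and Cdkn1b (p27) at −0.40 also fell and are named after their values were seen, and Cdkn1a lost its call with the mean of all probe sets (adjusted p = 0.196). The count of inhibitors that fell was 6 or 7 with any 1 array left out. It was 5 with the mean of all probe sets and 5 without controls 1 and 3 together.

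**Figure D4:**
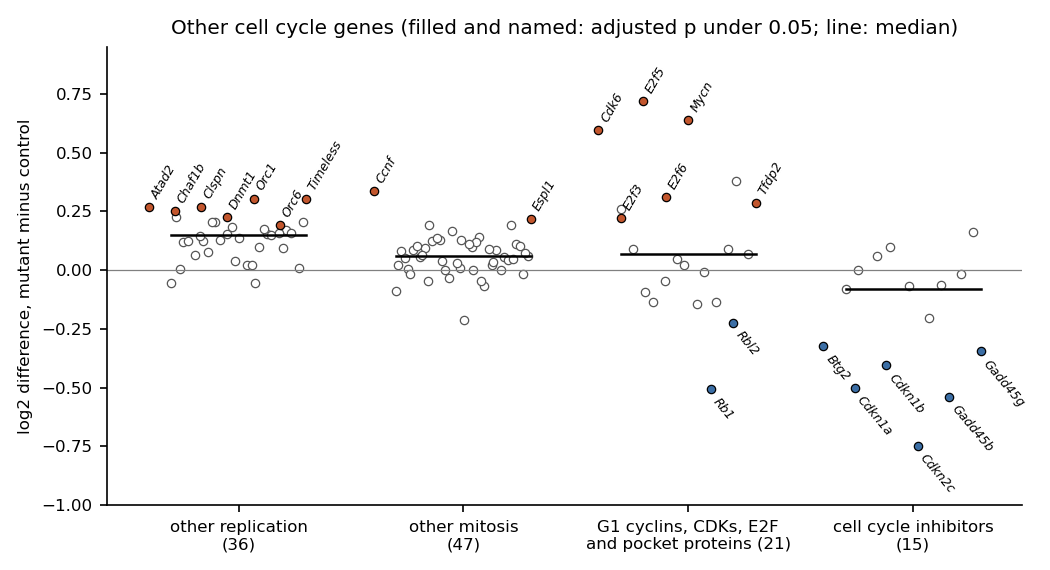
Each point is 1 gene, placed by its log2 difference, mutant minus control, with filled and named points for an adjusted p under 0.05 and a line at each list's median. Other replication genes centre on 0.15, other mitosis genes on 0.06, and the 6 inhibitors that fell stand apart below the rest of their list.

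Some markers of cell types moved on the same arrays, where 4.2% of all genes rose and 5.52% fell. A single call in a list of 7 or 8 markers is too few to set against those shares. Differentiated muscle markers fell in 10 of 14 cases, and their summed linear signal was 67254 to 77704 on controls and 39415 to 49746 on mutants. Endothelial markers rose in 2 of 5 (1515 to 1639 against 1929 to 2346), and macrophage markers fell in 2 of 8 (2154 to 2318 against 1396 to 2136). Neuronal and glial markers rose in 2 and fell in 4 of 6 (1582 to 1896 against 2185 to 2838). Nefl (1.63) and Nefm (1.53) carried the rise of that sum, while the list's mean centred log2 value differed by −0.29. Epithelial markers fell in 1 of 7 (8823 to 10343 against 6739 to 9708), muscle progenitor markers in 1 of 7 (5252 to 5454 against 4674 to 5392), and of 8 neural crest mesenchyme markers 1 rose and 1 fell (9481 to 10714 against 10259 to 12470). Of 5 erythroid markers 0 were called in limma, with 1 lower at an unadjusted p under 0.05 (22343 to 24823 against 21786 to 24205). Hbb-y, with a mean log2 value of 14.48, made up most of that sum. Msx2, Dlx6, Hba-a1, Gata1 and Ptprc lay below the median signal of all probe sets, and no value on this scale is 0. The part of these shifts in the replication and inhibitor results was not tested. In whole buds a change in the share of dividing cells and a change of transcript per cell cannot be told apart.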

How the data were processed

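The authors deposited log2 expression values per probe set for 8 one-colour Affymetrix arrays, made with RMA per the submitters' processing notes, its version and settings not given in the sources used here. RMA corrects background, aligns the arrays' distributions and summarises probes, which can remove small shifts shared by many genes. Of 45101 probe sets 34945 name 1 gene in the platform annotation. Those with several names or none and 64 control sets were left out.

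The test was two-sided, from lmFit and eBayes of limma 3.58.1 (R 4.3.3), and p-values were adjusted by Benjamini-Hochberg over 18193 genes, with dim sets kept. SE is limma's moderated error and intervals are at 95%. The procedure was tested on simulated data with shifts larger than any member's difference, so detection at the sizes seen here was not tested. Values by array are given for the 12 genes with the smallest p, the 2 brightest and the 2 dimmest, and of the wider lists the called genes with the 3 smallest p are named. Mki67 and Ccne1, and the further G1 genes Cdk6, E2f6, Tfdp2, E2f3 and Rbl2, were added after their values were seen. The members, lists, motifs and cell type markers were chosen with earlier results of these data known, and 1 scaling was added after seeing the data. The number of arrays limits the precision.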

Additional observations from a re-analysis of the deposited data

Results flagged for a closer look

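In 98 sets of 4 arrays (46 genes and 3 class means in each group), 11 had 1 array apart from the other 3 by Dixon's ratio, where chance flags about 1 in 20. Control 4 was low for Mcm3 (11.26) and high for Pole (8.91), Pcna (13.59), Plk1 (9.74) and Mki67 (12.04). Mutant 3 was high for Prim1 (11.49), Tyms (6.44), Ccna2 (12.003) and Birc5 (11.70). Mutant 1 was high for Rfc3 (9.99), and control 2 was low for Aurkb (10.12).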

How the results depend on the processing

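The same 24 replication genes stayed higher in the mutants in all 18 alternatives but 1, and the class changes kept their sign. With 1 array left out they ran from 0.14 to 0.17 for replication, 0.066 (without mutant 3) to 0.12 for mitosis and 0.04 to 0.08 for the gap. With the mean of all probe sets they were 0.138, 0.107 and 0.031, and without _x_at and _s_at sets 0.184, 0.105 and 0.079. The counts of calls moved. The genes called over the whole table numbered 1768, and 1143 to 1583 with 1 array left out (1155 without control 2, 1143 without mutant 2, 1172 without mutant 3 or mutant 4). Members called higher (6 as reported) were 10 with median centring, 11 with genes above the median signal, 16 with trend and robust options, 3 without controls 1 and 3 together, and 2 to 4 with 1 array left out. With the mean of all probe sets the count was also 6, but with Mcm7 and Fen1 in place of Mcm4 and Cdt1. Replication members called were 13 with trend and robust options, 3 without controls 1 and 3, and 2 to 4 with 1 array left out. Mitosis members called (0 as reported) were 1 with median centring, 2 with the signal filter, 3 with trend and robust options, 2 without variance moderation and 0 with any array left out. With fewer arrays the test has less power, so counts tend to fall whichever array is dropped, though a few list counts rose. Fits with the replicate number as a block called 966 genes, 1 of the members and 1 of the replication genes, 2 other replication genes, 1 other mitosis gene, and 3 higher and 1 lower among G1 genes. Same-numbered arrays deviated with correlations of −0.40 to 0.02, and other pairs of a control and a mutant array with −0.19 to 0.33. These values give no sign that arrays of the same number belong together, and 4 such pairs cannot settle it.

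Other replication genes called (7 as reported) were 3 with the mean of all probe sets, 11 with trend and robust options, 4 without moderation, 2 without controls 1 and 3, and 2 to 6 with 1 array left out. Other mitosis genes called were 1 with repeated quantile normalization, without moderation or without controls 1 and 3, and 1 to 3 with 1 array left out. Among G1 genes the mean of all probe sets gave 3 higher and 1 lower, leaving out controls 1 and 3 gave 1 lower, and leaving out 1 array gave 4 to 7 higher and 1 to 2 lower. One inhibitor was called higher (0 as reported) with the signal filter, with the mean of all probe sets and with trend and robust options, 1 each.

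Signs turned for genes near 0, none of them called: Cdc45 with the mean of all probe sets (−0.044), E2f1 with repeated quantile normalization (−0.017) or that mean (−0.029), Ccna2 with the same settings (−0.0037 and −0.0026) and Ccne2 without controls 1 and 3 (0.069). With 1 array left out the differences ran from −0.031 to 0.042 for E2f1, −0.113 to 0.018 for Ccne2, −0.037 to 0.026 for Ccna2, −0.050 to 0.007 for Cdk1, −0.0080 to 0.068 for Bub1b, −0.051 to 0.0044 for Ube2c and −0.024 to 0.063 for Nusap1. The cause was not tested.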
